A study of Mus musculus with 168 samples.

Results

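The comparison described here was age within 1 genotype. Cortex of mice heterozygous for the Q140 knock-in allele of Htt was sampled at 10 months and at 2 months, and the 16 libraries of these ages were chosen by their titles from the 168 libraries of the series. Each age had 8 libraries, 4 from females and 4 from males, all on the C57BL/6 background. The Q140 allele carries an expanded CAG repeat, named by its nominal length, in 1 copy of the mouse huntingtin gene. Animals of each knock-in allele were caged together, and wild types shared cages with Q20 mice, so allele and housing cannot be told apart in a comparison of genotypes. Used beside them were Q20, wild-type (WT) and Q175 mice at 2 and 10 months, again with 4 libraries of each sex and age. Q20 is a knock-in allele with a short repeat and Q175 one with a longer repeat, both heterozygous. The 8 Q140 libraries of 6 months serve as a description only. Their library names are of another kind than those of 2 and 10 months. The names also run in separate series at 2 and at 10 months, so age and library series cannot be told apart in any value below. Nothing in the labels says whether 2 libraries could share an animal, so p-values measure the spread between libraries.

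Huntingtin with a long glutamine tract causes Huntington's disease, in which the projection neurons of the striatum and of the cortex are lost or change early. The mouse cortex itself also goes on maturing and ageing. Precursors of oligodendrocytes differentiate and become fewer, myelin is added, the last newborn neurons mature, cell division in vessels and matrix production decline, and immune genes of glia tend to rise with age. Bulk RNA from a dissected cortex mixes all these cells with whatever neighbouring tissue is taken along. In such samples fewer cells of a type and less RNA per cell cannot be told apart.

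PolyA RNA from flash-frozen tissue was sequenced on Illumina HiSeq machines. Levels are estimated counts per 1e6 counts (CPM) after scaling, given as the lowest, the highest and the median of the 8 libraries. The libraries held 29842900 to 41929000 estimated counts. The cortical transcription factor Tbr1 was expressed at both ages (94.2 to 137 CPM over the 16 libraries). Xist and Ddx3y matched the labelled sex in each. Htt was 157 to 187 CPM (median 176) at 2 months and 98.9 to 186 CPM (median 176) at 10 months (log2 difference -0.09 ± 0.10 SE, adjusted p = 0.613). The polyA counts do not separate the 2 alleles, so Htt does not check the genotype. The lowest Htt value belonged to the library labelled 10-month female replicate 3, which stood apart in other ways. Its median correlation with the other libraries of its age was 0.980 on log2 CPM. For the rest this value was at least 0.9903. It had the highest share of mitochondrial transcripts (13.9%, against 9.99 to 12.96% in the others).

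Markers of tissue next to the cortex differed between the ages. The summed level of 22 genes of striatal projection neurons was 1135 to 1494 CPM at 2 months (median 1369) and 832.7 to 968 CPM at 10 months (median 877), with no overlap. At 6 months it was 1247 to 1420 CPM. Genes of 3 further neighbours, listed after the values had been seen, were also lower. Hypothalamic genes summed to 34.6 to 55.1 CPM at 2 months and 10.6 to 16.01 CPM at 10 months, with no overlap. Genes of basal forebrain cholinergic neurons (68.4 to 102 against 48.3 to 70.5 CPM) and of olfactory bulb interneurons (172 to 244 against 151 to 174 CPM) overlapped only at the edges. Choroid plexus genes went the other way and varied widely, from 23.8 to 423 CPM at 2 months (median 38.1) and from 40.8 to 2187 CPM at 10 months (median 438), with overlap. Summed hippocampal (492.7 to 536 against 474 to 564 CPM), thalamic (563 to 626 against 497 to 640 CPM) and blood genes (118 to 190 against 108 to 247 CPM) overlapped. The hepatocyte markers Alb and Apoa1 were at or near 0, at no more than 0.434 CPM in the 16 libraries.

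**Figure D1:**
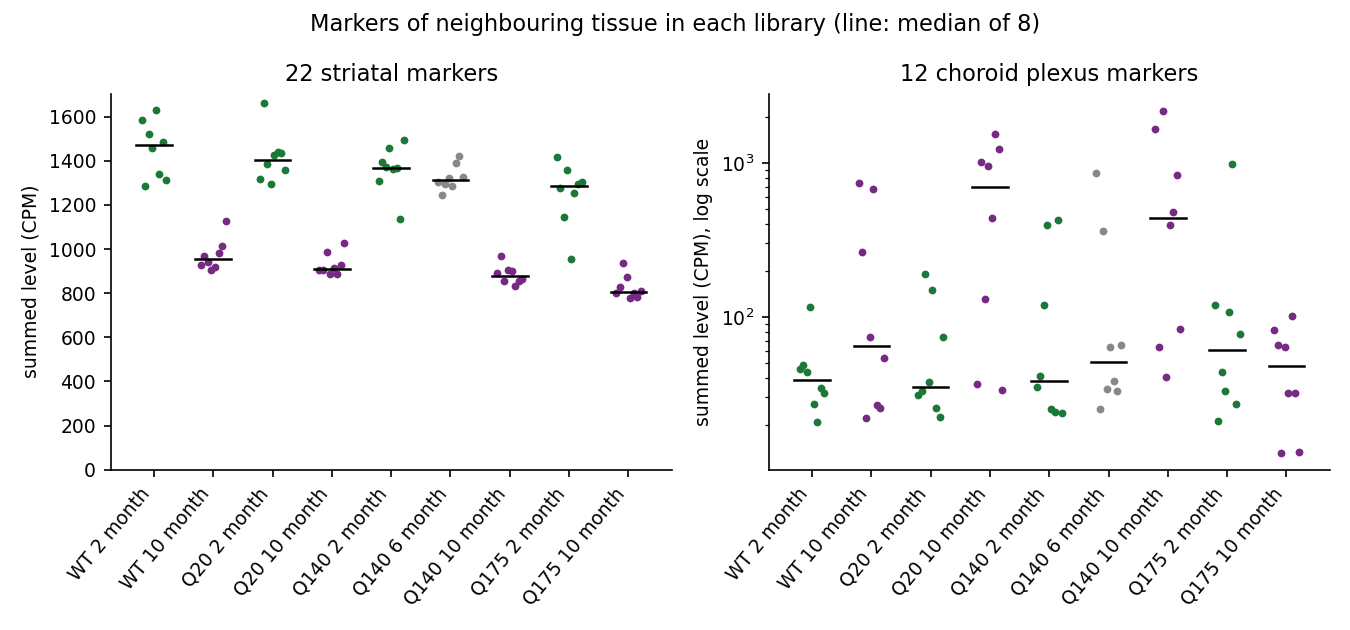
Summed level of 22 striatal markers (left, CPM, axis from 0) and 12 choroid plexus markers (right, CPM, log scale) in each library, by genotype and age; points are libraries, coloured by age, and lines are medians of 8. In Q140 the striatal sums of 10 months (832.7 to 968 CPM) lie below all those of 2 and 6 months, while choroid plexus sums of 10 months spread from 40.8 to 2187 CPM.

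Between 2 and 10 months 2438 of 16490 genes tested changed (14.8%), of which 1110 rose (6.73%) and 1328 fell (8.05%). The call was an adjusted p under 0.05 in edgeR's quasi-likelihood test with sex in the model. Most changes were small. The median called change was 1.205-fold, 2010 of the 2438 were under 1.5-fold, and the genes past 2-fold were 24 that rose and 118 that fell. The 8 libraries of one age lay wholly above the 8 of the other for 241 higher genes (1.46%) and 354 lower genes (2.15%), of which 239 and 351 were called. The median log2 difference over all genes tested was 0.001. When the summed striatal level of each library was added to the model, which was done after the values were seen, 0 genes were called (587 had an unadjusted p under 0.05, against 4601 without it). That level does not overlap between the ages, so it and age cannot be told apart in these 16 libraries. With the summed choroid plexus level in the model 1872 genes were called, of which 1575 were among the 2438.

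**Figure D2:**
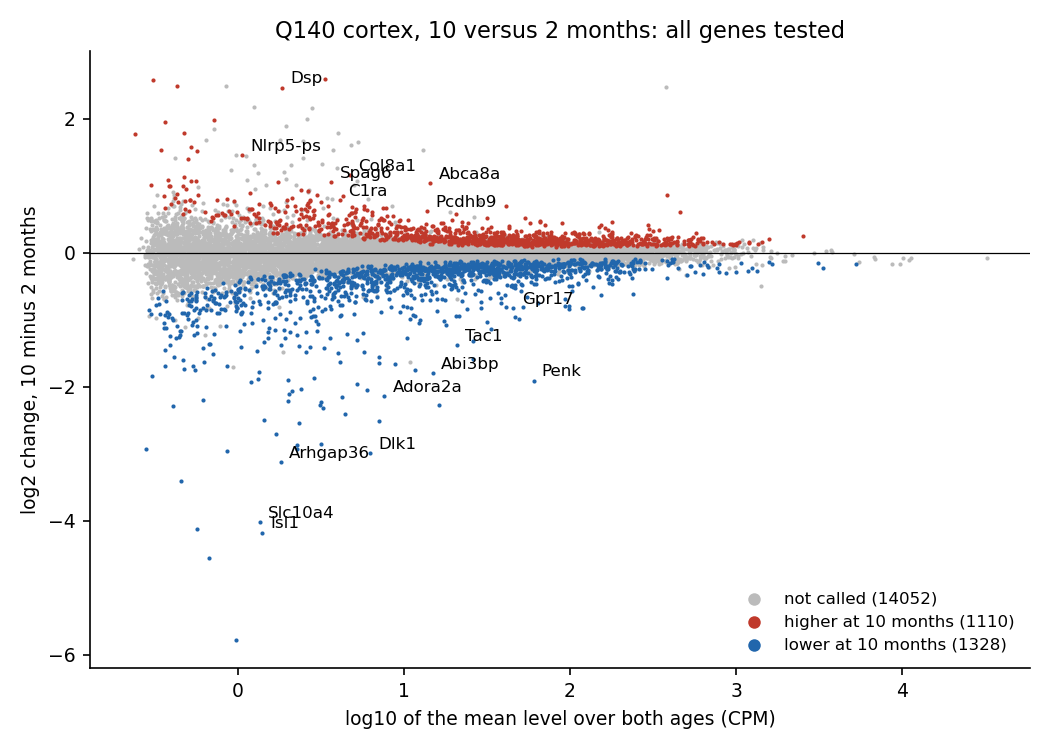
Each point is 1 of the 16490 genes tested, placed by its mean level over both ages (log10 CPM) and its log2 change from 2 to 10 months. The 1110 genes that rose are red, the 1328 that fell are blue and the rest grey; falls reach further than rises, and the labelled low-level genes Isl1 and Slc10a4 lie at the bottom.

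The genes that fell with the smallest p-values were led by neuropeptides and receptors of striatal projection neurons. Penk, which encodes the precursor of the enkephalins (chromosome 4, 4133531 to 4138819, GRCm38), ranged from 73.7 to 110.8 CPM (median 94.2) at 2 months and from 21.1 to 31.2 CPM (median 25.6) at 10 months. The 2 ages were far apart, and Penk was 3.75-fold lower at 10 months (log2 difference -1.91 ± 0.08 SE, adjusted p = 5.59e-11). At 6 months its median was 82.5 CPM. Adora2a, the adenosine receptor of the same neurons, was 9.65 to 15.2 CPM (median 12.5) at 2 months and 2.25 to 3.58 CPM (median 2.80) at 10 months, a 4.42-fold difference. Drd2, the dopamine receptor of the indirect pathway, ranged from 3.30 to 6.77 CPM (median 5.72) at 2 months and from 0.801 to 1.86 CPM (median 1.01) at 10 months, and was 4.97-fold lower. Drd1, the receptor of the direct pathway, was 18.9 to 28.6 CPM (median 24.7) at 2 months and 10.3 to 13.05 CPM (median 11.3) at 10 months, a 2.11-fold difference. In each of these 4 genes every 10-month library lay below every 2-month library. Tac1, the precursor of substance P (chromosome 6, 7554879 to 7565834), ranged from 21.3 to 33.8 CPM (median 30.3) at 2 months and from 10.6 to 14.3 CPM (median 11.0) at 10 months and was 2.60-fold lower (log2 difference -1.38 ± 0.08 SE, adjusted p = 2.63e-09). Further members with shallower differences were Ppp1r1b, the phosphatase inhibitor DARPP-32 (medians 117 CPM at 2 and 65.2 CPM at 10 months), Adcy5, the striatal adenylyl cyclase (188 CPM at 2 and 119.7 CPM at 10 months), and Gng7, a G protein subunit (155 CPM at 2 and 84.4 CPM at 10 months), all with groups that did not overlap. Of the 22 striatal markers tested 20 fell and 0 rose (8.05% and 6.73% over all genes tested), with a median log2 difference of -0.81. The same markers are what measures striatal tissue in the dissection, so the list cannot separate a change inside cortical cells from a different amount of striatum.

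Genes of other forebrain regions fell further still, from low levels. Isl1, a homeobox factor of striatal and cholinergic neurons (chromosome 13, 116298281 to 116309689), was 1.003 to 3.77 CPM (median 2.72) at 2 months and 0 to 0.266 CPM (median 0.152) at 10 months, or 31 to 119 counts against 0 to 9 counts, and was 18.1-fold lower (log2 difference -4.18 ± 0.29 SE, adjusted p = 1.31e-08). Slc10a4, a vesicular carrier of cholinergic neurons, ranged from 1.23 to 3.90 CPM (median 2.51) at 2 months and from 0 to 0.261 CPM (median 0.163) at 10 months, a 16.2-fold difference. Lhx8, a homeobox factor needed by cholinergic neurons, had 14 to 88 counts per library at 2 months and 0 to 3 counts at 10 months. The latter is at or below the floor of 3 counts, so no fold is given. Chat, the enzyme that makes acetylcholine, ranged from 1.07 to 4.88 CPM at 2 months and from 0.254 to 0.948 CPM at 10 months, so the ages did not overlap. Lhx8 and Chat were singled out after their values were seen. Among genes high in hypothalamus, Dlk1, a Notch-related membrane protein, was 5.53 to 13.999 CPM (median 12.3) at 2 months and 0.935 to 2.11 CPM (median 1.30) at 10 months. Magel2, an imprinted gene, ranged from 3.56 to 6.78 CPM (median 5.33) at 2 months and from 0.835 to 1.35 CPM (median 1.03) at 10 months. Ecel1, a membrane peptidase, was 8.03 to 15.4 CPM (median 12.04) at 2 months and 1.37 to 2.60 CPM (median 2.15) at 10 months. They were 7.94-fold, 4.84-fold and 5.68-fold lower, and in none of them did the ages overlap. Arhgap36, a GTPase-activating protein also high in hypothalamus, was 8.69-fold lower and Six3, a forebrain patterning factor, 7.65-fold lower. Of the cholinergic, hypothalamic and olfactory bulb markers 8 of 10, 6 of 9 and 8 of 10 tested fell and 0 rose. Over all genes tested 8.05% fell and 6.73% rose. These lists were chosen after the values were seen. They share members, since Trh is in both the hypothalamic and the olfactory bulb list, and Isl1 is also a striatal marker. Their summed medians at 6 months were 103, 61.2 and 186 CPM.

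Other genes of the leading 12 that fell were not on the lists of neighbouring tissue. Whether such tissue had a part in their falls was not tested. Abi3bp, an extracellular matrix protein, ranged from 21.5 to 25.7 CPM (median 22.8) at 2 months and from 5.78 to 9.50 CPM (median 6.18) at 10 months, with no overlap and a 3.48-fold difference. Slc35d3, a carrier linked to dopamine receptor traffic, had medians of 3.11 CPM at 2 and 0.842 CPM at 10 months, and Kcna5, a voltage-gated potassium channel, of 5.66 CPM at 2 and 2.02 CPM at 10 months. Neither overlapped between ages.

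**Figure D3:**
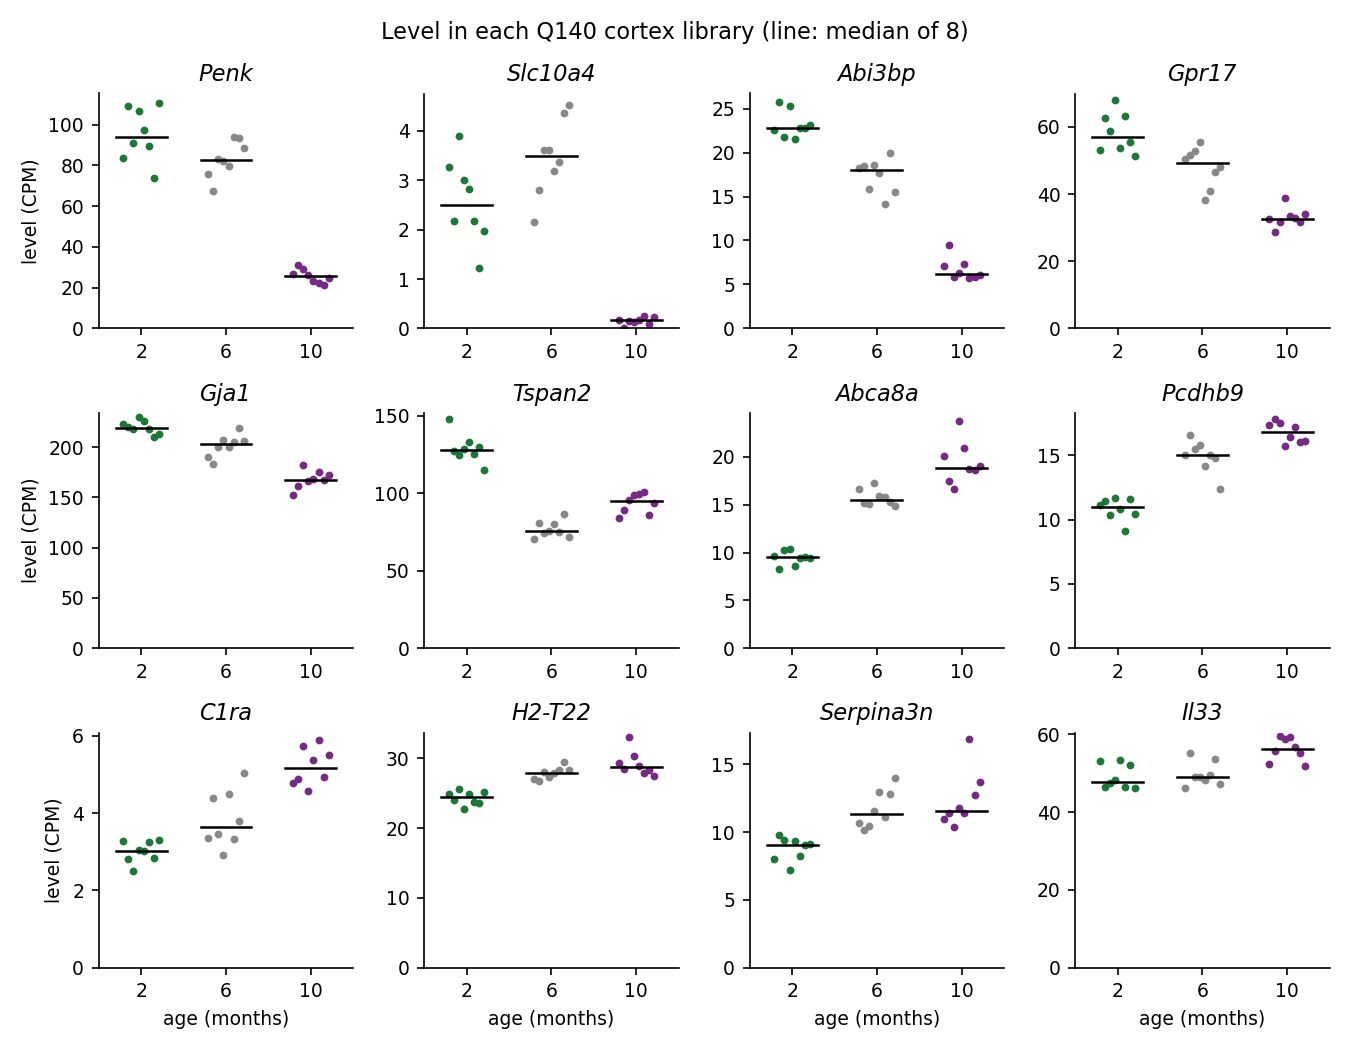
Level (CPM, axes from 0) of 12 genes in each Q140 library at 2, 6 and 10 months; points are libraries and lines are medians of 8, with the 6-month libraries, whose names are of another kind, in grey. Penk falls from a median of 94.2 to 25.6 CPM and Abca8a rises from 9.49 to 18.9 CPM without overlap of the 2 ages, while Il33 overlaps.

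Next are the genes that rose with the smallest p-values. Abca8a, an ATP-binding cassette lipid transporter of oligodendrocytes (chromosome 11, 110025634 to 110095978), was 8.24 to 10.4 CPM (median 9.49) at 2 months and 16.7 to 23.8 CPM (median 18.9) at 10 months. All 10-month libraries were above all 2-month libraries. It rose 2.05-fold (log2 difference 1.03 ± 0.07 SE, adjusted p = 1.15e-08). The 6-month median was 15.5 CPM. Anln, a septin-binding scaffold protein of myelin, ranged from 23.9 to 33.8 CPM (median 32.4) at 2 months and from 43.3 to 63.0 CPM (median 49.9) at 10 months, a 1.63-fold rise without overlap. C1ra, a protease that starts the complement cascade, was 2.504 to 3.31 CPM (median 3.02) at 2 months and 4.58 to 5.90 CPM (median 5.15) at 10 months and rose 1.73-fold. Cd34, a sialomucin of endothelial cells and precursors, ranged from 68.6 to 82.9 CPM (median 76.9) at 2 months and from 92.7 to 121 CPM (median 102) at 10 months, a rise of 1.35-fold. Dkk3, a secreted glycoprotein of cortical neurons, was 228 to 271 CPM (median 256) at 2 months and 317 to 366 CPM (median 342) at 10 months, a rise of 1.34-fold, and again the ages were separate. Plxdc1, a vascular transmembrane receptor (medians 25.4 CPM at 2 and 37.3 CPM at 10 months), Alox8, an arachidonate lipoxygenase (3.69 CPM at 2 and 5.98 CPM at 10 months), and Apol8, an apolipoprotein L (3.86 CPM at 2 and 5.84 CPM at 10 months), rose without overlap as well. Spag6, an axonemal protein of motile cilia, ranged from 1.94 to 2.96 CPM (median 2.29) at 2 months and from 4.39 to 6.14 CPM (median 4.89) at 10 months, and its 2.07-fold rise was among the largest. Nlrp5-ps, a pseudogene whose reads may be shared with its parent gene, rose 2.76-fold from a median of 0.490 CPM, and Prdm8, a zinc finger repressor of cortical neurons, rose 1.40-fold with overlapping groups. In a pair of genes with large fitted folds the ages overlapped. Dsp, the desmosomal plakin, was 0.260 to 0.809 CPM (median 0.549) at 2 months and 0.200 to 11.4 CPM (median 1.99) at 10 months, with 10-month libraries on both sides of the 2-month range (log2 difference 2.47 ± 0.69). Col8a1, a short-chain collagen, ranged from 1.83 to 4.19 CPM (median 2.46) at 2 months and from 2.69 to 12.4 CPM (median 5.18) at 10 months (log2 difference 1.16 ± 0.32). Dsp was no longer called without 2-month male replicate 1, 2 or 4 or without 10-month male replicate 2 (adjusted p = 0.0506 to 0.0609), with the choroid plexus level in the model (adjusted p = 0.162) or by limma on FPKM (adjusted p = 0.0894 and 0.144), and Col8a1 was not without 2-month female replicate 2 (adjusted p = 0.0504) or with the choroid plexus level (adjusted p = 0.109).

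Oligodendrocytes wrap axons in myelin and arise from dividing precursors through a short newly formed stage. Markers of the precursor end of this lineage were among those that fell. Gpr17, the receptor that marks committed precursors, was 51.2 to 68.0 CPM (median 57.1) at 2 months and 28.8 to 38.8 CPM (median 32.7) at 10 months and was 1.77-fold lower (log2 difference -0.82 ± 0.06 SE, adjusted p = 2.23e-08), with no overlap. Pdgfra, the growth factor receptor that defines precursors, ranged from 60.6 to 74.6 CPM (median 71.0) at 2 months and from 43.0 to 60.3 CPM (median 55.8) at 10 months. It fell 1.28-fold. C1ql1, a secreted complement-like protein of precursors (medians 5.51 CPM at 2 and 3.38 CPM at 10 months), fell without overlap, while Vcan, a large matrix proteoglycan (28.7 CPM at 2 and 21.7 CPM at 10 months), and Tmem163, a zinc transporter of newly formed cells (15.3 CPM at 2 and 12.6 CPM at 10 months), fell with overlap. Of 15 precursor markers tested 7 fell and 0 rose, and of 15 newly formed markers 7 fell and 0 rose. The shares over all genes tested were 8.05% and 6.73%. Gpr17 is in both lists. Enpp6, the defining marker of the newly formed stage, did not pass the test (5.12 to 7.28 CPM at 2 months, 5.29 to 7.98 CPM at 10 months, adjusted p = 0.383). The myelin genes divided, with 7 of 24 rising and 7 falling and a median log2 difference of 0.001. Anln, given above, was among those that rose. Tspan2, a tetraspanin of myelin (chromosome 3, 102734529 to 102801513), was 115 to 148 CPM (median 128) at 2 months and 84.0 to 101 CPM (median 94.7) at 10 months, and fell 1.39-fold, without overlap (log2 difference -0.47 ± 0.05 SE, adjusted p = 2.05e-06). Its median at 6 months was lower still (75.4 CPM), in the libraries with other names. Mobp, an abundant myelin basic protein, ranged from 711.8 to 993 CPM (median 823) at 2 months and from 659.6 to 860.4 CPM (median 729) at 10 months, with overlap (log2 difference -0.16 ± 0.05, adjusted p = 0.0259). That call was lost without the sex term (adjusted p = 0.0663) and without 2-month female replicate 4, 2-month male replicate 1 or 10-month female replicate 1 or 2 or male replicate 3 or 4 (adjusted p = 0.0536 to 0.0681).

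Astrocytes clear glutamate and potassium and supply synapses. Of 16 astrocyte markers 13 fell and 0 rose (8.05% and 6.73% over all genes tested), with a median log2 difference of -0.21. Gja1, the gap junction protein connexin 43 (chromosome 10, 56377330 to 56402513), was 210.5 to 230.0 CPM (median 219) at 2 months and 153 to 182 CPM (median 167) at 10 months, with no overlap and a 1.31-fold fall (log2 difference -0.39 ± 0.03 SE, adjusted p = 2.52e-07). Aqp4, the water channel of astrocyte endfeet, ranged from 137 to 159 CPM (median 140.3) at 2 months and from 86.5 to 126 CPM (median 110.2) at 10 months, again without overlap. It fell 1.33-fold. Of 14 genes raised in reactive astrocytes 1 rose and 5 fell (median log2 difference -0.15). The latter count was 2 with the choroid plexus level in the model, and 2 or 3 without 2-month female replicate 2 or 3, 2-month male replicate 2, 10-month female replicate 1 or 2 or 10-month male replicate 4. The one that rose was Serpina3n, a secreted protease inhibitor (chromosome 12, 104406729 to 104414329), which was 7.20 to 9.75 CPM (median 9.07) at 2 months and 10.4 to 16.8 CPM (median 11.6) at 10 months. Every 10-month library was above every 2-month library. It rose 1.41-fold (log2 difference 0.49 ± 0.08 SE, adjusted p = 3.75e-04). Of 20 microglial markers 1 rose and 1 fell, neither more than the share over all genes tested (6.73% and 8.05%). Their median log2 difference was -0.01. The one that rose was Ctss, a lysosomal protease (medians 62.9 CPM at 2 and 71.8 CPM at 10 months). The falling count was 3 without 2-month female replicate 1 and 2 without 2-month male replicate 1 or 10-month female replicate 3. Genes of activated microglia gave 2 of 16 higher and 3 lower. The higher count was 1 in 12 of the 16 fits that left out a library (all but those without 2-month male replicate 3 or 4 or 10-month female replicate 1 or 3). The lower count was 1 without 2-month female replicate 2 or 4, 2-month male replicate 2, 10-month female replicate 1 or 4 or 10-month male replicate 1, and each was 1 with the choroid plexus level in the model.

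Nucleated cells present peptides on class I MHC molecules, and interferon raises these genes through factors of the IRF family. Of 22 antigen presentation genes tested 7 rose and 0 fell (median log2 difference 0.11), beside 6.73% and 8.05% of all genes. With the choroid plexus level in the model 2 were higher and 1 lower (median 0.02). The higher count was 4 without 2-month female replicate 1, 2 or 4, 2-month male replicate 1 or 2, 10-month female replicate 2 or 10-month male replicate 2 or 3. H2-T22, a class Ib molecule, ranged from 22.8 to 25.6 CPM (median 24.4) at 2 months and from 27.5 to 33.1 CPM (median 28.7) at 10 months, a rise of 1.196-fold in which the ages did not overlap (log2 difference 0.26 ± 0.04 SE, adjusted p = 2.14e-04). H2-Q7, another class Ib gene, was 1.53 to 3.42 CPM (median 1.84) at 2 months and 2.24 to 6.21 CPM (median 3.52) at 10 months, and rose 1.83-fold with overlap. H2-M3, which presents formylated peptides, ranged from 1.72 to 2.26 CPM (median 2.05) at 2 months and from 1.90 to 3.33 CPM (median 2.86) at 10 months, a rise of 1.34-fold, also with overlap, that was not called with the choroid plexus level in the model (adjusted p = 0.0932). The class I genes are near copies of each other, so the counts of single members are uncertain. The promoters of these 3 genes are shown because all 3 were called higher, from 250 bases before to 50 after the RefSeq start in GRCm38.p6, 5′ to 3′ on the strand of the gene. Capitals mark matches to AANNGAAA, a core of IRF binding sequences, searched on both strands; here each match lies on the opposite strand and reads TTTCACTT.
H2-T22, chr17:36042693-36042992, minus strand: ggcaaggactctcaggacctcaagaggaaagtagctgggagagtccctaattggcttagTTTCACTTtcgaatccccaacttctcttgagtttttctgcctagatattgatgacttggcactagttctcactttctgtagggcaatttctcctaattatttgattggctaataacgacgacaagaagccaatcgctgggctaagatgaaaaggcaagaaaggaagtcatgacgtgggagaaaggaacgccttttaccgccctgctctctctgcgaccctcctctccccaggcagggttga
H2-Q7, chr17:35438905-35439204, plus strand: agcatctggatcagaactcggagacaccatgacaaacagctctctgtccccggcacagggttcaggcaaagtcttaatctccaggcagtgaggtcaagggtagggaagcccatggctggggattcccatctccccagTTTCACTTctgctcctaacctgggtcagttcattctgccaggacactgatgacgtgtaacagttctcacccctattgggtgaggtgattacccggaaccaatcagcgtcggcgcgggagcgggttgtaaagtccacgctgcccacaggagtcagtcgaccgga
H2-M3, chr17:37269984-37270283, plus strand: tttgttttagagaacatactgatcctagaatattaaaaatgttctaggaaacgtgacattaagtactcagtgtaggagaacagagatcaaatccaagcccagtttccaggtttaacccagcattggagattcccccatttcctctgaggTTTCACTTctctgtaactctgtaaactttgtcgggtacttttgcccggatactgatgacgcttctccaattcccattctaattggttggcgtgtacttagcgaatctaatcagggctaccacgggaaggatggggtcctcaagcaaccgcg
The matches start 191, 113 and 101 bases before the RefSeq start. Such a match is present in 24.2% of the 27018 promoters of the same length in the table. Among the antigen presentation genes 17 of 22 had a promoter in the table, and 10 of the 17 held a match. So did 6 of the 6 that rose and had a promoter. Matches in class I genes, near copies of each other, may not be separate. A second search, for CGTCA in promoters of the striatal list, found a match in 3 of 16, against 21% of all promoters. Of the 14 called striatal genes with a promoter 3 held it. A match is a run of letters and not a measured site.

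Counts in other immune lists are to be read against the 6.73% of all genes that rose and the 8.05% that fell. Among interferon-stimulated genes 3 of 25 rose and 0 fell (median log2 difference -0.02), and 1 rose with the choroid plexus level in the model. Xaf1, an apoptosis-related interferon target, was 5.15 to 7.11 CPM (median 5.67) at 2 months and 7.57 to 9.18 CPM (median 8.15) at 10 months and rose 1.40-fold without overlap (log2 difference 0.49 ± 0.06 SE, adjusted p = 2.74e-05). Among complement genes 3 of 18 rose and 1 fell. Beside C1ra, its partner protease C1s1 rose 1.40-fold (medians 2.70 CPM at 2 and 3.76 CPM at 10 months). C4b, the component cleaved by C1s, ranged from 17.8 to 23.6 CPM (median 20.5) at 2 months and from 23.2 to 31.6 CPM (median 28.7) at 10 months and rose 1.36-fold with overlap. It has a near copy, C4a, so its counts may be shared. Of 12 genes of B and plasma cells 3 were tested, of which 2 rose and 0 fell. The third, Jchain, was not called (log2 difference -0.12). The 2 that rose encode immunoglobulin heavy chains. Ighm, the constant chain of IgM, was 25.5 to 32.6 CPM (median 29.7) at 2 months and 32.9 to 41.0 CPM (median 36.3) at 10 months. Ighg2c, that of IgG2c, ranged from 1.91 to 3.46 CPM (median 2.72) at 2 months and from 3.54 to 5.31 CPM (median 4.30) at 10 months. Neither overlapped, and the rises were 1.24-fold and 1.63-fold.

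Lists of immature neurons, cell division and matrix proteins had more members that fell than rose. Newborn neurons are rare in the adult cortex but stream towards the olfactory bulb close by. Igfbpl1, a binding protein of neuronal progenitors (chromosome 4, 45809468 to 45826923), was 1.27 to 2.08 CPM (median 1.40) at 2 months and 0.0848 to 0.505 CPM (median 0.152) at 10 months, with no overlap and a 7.80-fold fall (log2 difference -2.96 ± 0.22 SE, adjusted p = 2.23e-08). Sox4, a factor of early neuronal differentiation, ranged from 13.4 to 17.71 CPM (median 15.7) at 2 months and from 8.27 to 11.3 CPM (median 9.81) at 10 months. Marcksl1, an actin-binding protein of growing neurites, was 45.8 to 59.1 CPM (median 52.4) at 2 months and 24.6 to 36.8 CPM (median 30.0) at 10 months. Both pairs of ages were separate, with falls of 1.63-fold and 1.76-fold. Sp9, a factor of newborn striatal and olfactory interneurons, fell 1.59-fold without overlap. Of 22 genes of immature neurons 15 fell and 1 rose (median log2 difference -0.31), beside 8.05% and 6.73% of all genes tested. The olfactory bulb and striatal levels above moved in the same direction, and their part in this list was not tested. Igfbpl1 and Sp8 are members of both this list and the olfactory bulb list.

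Of 20 cell cycle genes tested 10 fell and 0 rose (8.05% and 6.73% over all genes), with a median log2 difference of -0.32. Top2a, the topoisomerase of dividing cells (chromosome 11, 98992943 to 99024189), ranged from 1.73 to 2.84 CPM (median 1.97) at 2 months and from 0.399 to 1.04 CPM (median 0.554) at 10 months. It fell 3.44-fold (log2 difference -1.78 ± 0.16 SE, adjusted p = 4.21e-07). Mki67, the proliferation antigen, was 2.26 to 3.17 CPM (median 2.62) at 2 months and 0.612 to 1.48 CPM (median 0.981) at 10 months, and fell 2.61-fold. Cenpf, a kinetochore protein, fell 2.86-fold from a median of 1.08 CPM. All 3 were separate between ages, and their 6-month medians (1.12, 1.71 and 0.485 CPM) lay between those of 2 and 10 months.

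Collagens and other proteins of the fibrous matrix and basement membranes gave 19 falling and 1 rising of 32, with a median log2 difference of -0.38. The shares over all genes tested were 8.05% falling and 6.73% rising. Postn, a matricellular protein, ranged from 3.01 to 5.08 CPM (median 3.74) at 2 months and from 1.35 to 2.57 CPM (median 2.04) at 10 months. It fell 1.93-fold (log2 difference -0.95 ± 0.10 SE, adjusted p = 2.25e-06). Col23a1, a transmembrane collagen, was 17.9 to 22.3 CPM (median 19.0) at 2 months and 8.95 to 14.5 CPM (median 12.4) at 10 months. Col11a1, a fibrillar collagen, ranged from 28.3 to 38.9 CPM (median 34.6) at 2 months and from 16.8 to 27.4 CPM (median 23.1) at 10 months. In these 3 genes the ages did not overlap. The perineuronal net is a lattice of proteoglycans around interneurons. Of its 18 genes 11 fell and 1 rose. The one that rose was Hapln4, a link protein (chromosome 8, 70083457 to 70090862), which was 89.8 to 103 CPM (median 94.7) at 2 months and 110.2 to 131 CPM (median 116) at 10 months and rose 1.25-fold (log2 difference 0.32 ± 0.04 SE, adjusted p = 1.90e-05). Chst3, a chondroitin sulfotransferase, had medians of 4.04 CPM at 2 and 2.93 CPM at 10 months and fell without overlap, and Tnc, the glycoprotein tenascin C, had medians of 4.96 CPM at 2 and 2.56 CPM at 10 months and fell 1.79-fold with overlap. Of the vascular markers, 9 of 20 endothelial and 8 of 15 pericyte and smooth muscle genes were lower and 0 higher in either. The second count was 5 without 2-month female or male replicate 4. With the choroid plexus level in the model the counts were 6 and 1. Cd34 and Plxdc1, described above, rose. Examples are Itm2a, a membrane protein of brain endothelium (medians 57.8 CPM at 2 and 48.5 CPM at 10 months), and Acta2, the actin of smooth muscle (medians 18.7 CPM at 2 and 11.2 CPM at 10 months), both with overlap. Of 16 markers of meningeal fibroblasts 1 fell and 0 rose, although the median log2 difference was -0.29, and 6 fell without 10-month male replicate 3.

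Cortical projection neurons are arranged in layers and named by their transcription factors. Upper-layer genes gave 3 higher and 4 lower of 12 (6.73% and 8.05% over all genes tested). Wfs1, the endoplasmic reticulum protein wolframin, ranged from 97.4 to 122 CPM (median 116) at 2 months and from 56.6 to 89.7 CPM (median 70.9) at 10 months, a 1.61-fold fall that left no overlap (log2 difference -0.69 ± 0.08 SE, adjusted p = 9.87e-06). Mdga1, an adhesion molecule of upper layers, fell 1.92-fold (medians 30.7 CPM at 2 and 13.8 CPM at 10 months) with overlap. Deep-layer genes gave 4 higher and 3 lower of 16, and 6 lower without 10-month female replicate 3. Fezf2, the factor of corticospinal neurons, was 16.2 to 21.8 CPM (median 18.4) at 2 months and 23.4 to 31.5 CPM (median 25.2) at 10 months, and rose 1.37-fold without overlap. Tbr1, the factor of corticothalamic neurons, rose with overlap (medians 100.4 CPM at 2 and 124 CPM at 10 months). Levels are shares of a library, and markers of neighbouring tissue fell in the same libraries; their part in these rises was not tested.

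Inhibitory interneurons gave 3 higher and 10 lower of 21 (6.73% and 8.05% over all genes tested). Pvalb, the calcium buffer of fast-spiking cells, ranged from 36.5 to 49.9 CPM (median 44.6) at 2 months and from 54.2 to 85.2 CPM (median 60.8) at 10 months, and rose 1.43-fold without overlap (log2 difference 0.52 ± 0.07 SE, adjusted p = 9.28e-05). Gad2, the enzyme that makes GABA in terminals, was 163 to 221 CPM (median 198) at 2 months and 128 to 160.3 CPM (median 149) at 10 months, and fell 1.37-fold without overlap. Calb2, the calretinin gene, ranged from 13.4 to 25.9 CPM (median 20.6) at 2 months and from 7.49 to 17.3 CPM (median 10.4) at 10 months, a 1.83-fold fall with overlap. Dlx6, a homeobox factor of interneurons and striatal neurons, fell without overlap (medians 6.34 CPM at 2 and 3.82 CPM at 10 months). Gad2, Calb2 and Dlx6 are also high in striatum or olfactory bulb, whose markers fell. Calb2 is itself a member of that olfactory bulb list.

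Receptors, channels and release proteins moved less. Their counts stand beside 6.73% of all genes tested that rose and 8.05% that fell. Of 22 glutamate receptor genes 9 fell and 0 rose. Grin2c, an NMDA receptor subunit, was 44.1 to 53.2 CPM (median 49.5) at 2 months and 34.8 to 41.9 CPM (median 38.8) at 10 months, with no overlap. Grin3a, another subunit, fell with overlap (medians 44.4 CPM at 2 and 36.4 CPM at 10 months). GABA receptors and transporters gave 3 higher and 4 lower of 16. Slc6a11, the astrocytic GABA transporter, fell 1.31-fold without overlap (medians 191 CPM at 2 and 144 CPM at 10 months), and Gabrg1, a gamma subunit, fell 1.33-fold without overlap. Potassium channels gave 8 higher and 5 lower of 50, the latter near the share over all genes. As many as 14 were higher without 10-month female replicate 3, and 2 or 3 were lower without 2-month female replicate 3 or 4, 2-month male replicate 1 or 2 or 10-month male replicate 1, 2 or 3. Kcnc2, the fast delayed rectifier of interneurons, ranged from 101 to 118 CPM (median 109) at 2 months and from 127 to 141 CPM (median 135) at 10 months. Kcnab2, a beta subunit, had medians of 379.7 CPM at 2 and 437 CPM at 10 months, and both rose without overlap. Kcnj10, the potassium channel of astrocytes, fell 1.23-fold (medians 234 CPM at 2 and 192 CPM at 10 months). Proteins of the presynaptic release machinery gave 11 higher and 2 lower of 30, with a median log2 difference of 0.09. Vamp1, a vesicle SNARE, was 148 to 170.5 CPM (median 161) at 2 months and 185 to 217 CPM (median 191) at 10 months. Cplx1, a clamp of vesicle fusion, ranged from 519 to 587 CPM (median 544) at 2 months and from 593 to 688 CPM (median 630.4) at 10 months. Each rose without overlap, by 1.22-fold and 1.16-fold. Signalling genes of the cAMP, calcium and opioid systems gave 3 higher and 11 lower of 32, a list that shares Penk, Adcy5 and other members with the striatal list.

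The beta protocadherins are adhesion proteins whose stochastic choice gives neurons an identity, and their genes lie side by side. Of 21 clustered protocadherins tested 6 rose and 0 fell (6.73% and 8.05% over all genes tested). Pcdhb9, the gene with the second smallest p among those that rose, was 9.09 to 11.7 CPM (median 11.0) at 2 months and 15.8 to 17.8 CPM (median 16.8) at 10 months, and rose 1.55-fold without overlap (log2 difference 0.63 ± 0.05 SE, adjusted p = 8.73e-08). Pcdhb3 (medians 6.20 CPM at 2 and 8.38 CPM at 10 months) and Pcdhb5 (5.98 CPM at 2 and 7.98 CPM at 10 months) rose without overlap, and Pcdhb13 (4.997 CPM at 2 and 6.71 CPM at 10 months) with it. These genes resemble each other closely, so single counts are uncertain.

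**Figure D4:**
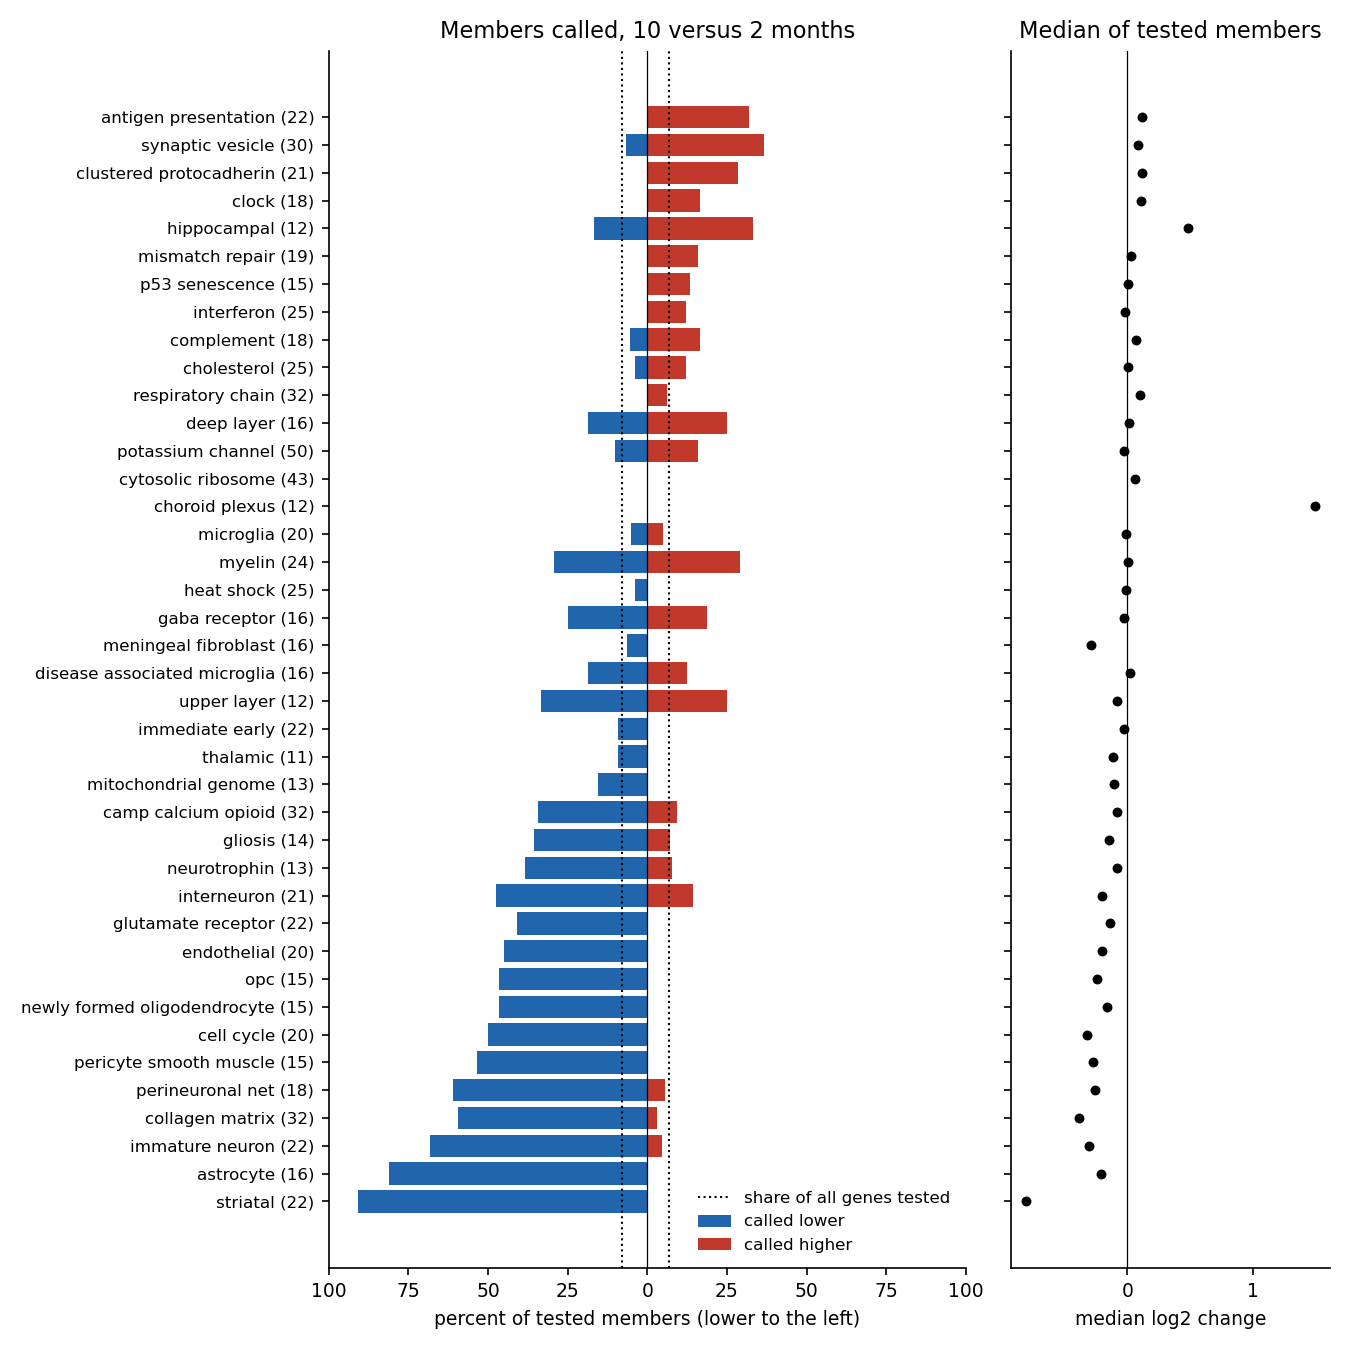
Left: percent of the tested members of each gene list called higher (red, to the right) or lower (blue, to the left) at 10 months, with the number tested in brackets; dotted lines mark the shares over all genes tested, 6.73% and 8.05%. Right: median log2 change of the tested members; the striatal list has 20 of 22 members lower, and choroid plexus has the highest median, 1.49, with 0 members called.

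Counts in the remaining lists are also to be read against the 6.73% of all genes that rose and the 8.05% that fell. Several varied with single libraries. None of 43 cytosolic ribosomal proteins was called (median log2 difference 0.06), and 2 of 32 nuclear genes of the respiratory chain rose (median 0.10), a count of 0 to 3 when each library was left out. Transcripts of the mitochondrial genome gave 0 higher and 2 lower of 13, but 11 lower without 10-month female replicate 3. Cholesterol synthesis gave 3 higher and 1 lower of 25, with 0 to 4 higher and 1 to 4 lower when each library was left out. Clock genes gave 3 higher of 18 with that library and 6 without it. Mismatch repair and related genes known to modify CAG repeat instability gave 3 higher and 0 lower of 19, and 5 higher without that library. Of 15 targets of p53 and arrest genes 2 rose. Ccng1, a cyclin induced by p53, ranged from 77.6 to 86.7 CPM (median 81.9) at 2 months and from 90.6 to 105 CPM (median 96.6) at 10 months, without overlap. Eda2r, a receptor of the TNF family, rose 2.10-fold (medians 0.345 CPM at 2 and 0.708 CPM at 10 months). Immediate early genes gave 2 lower of 22, among them Jun, a subunit of AP-1, which fell 1.35-fold, and heat shock genes 1 lower of 25. Hippocampal markers gave 4 higher and 2 lower of 12, Dsp and Wfs1 among them, with a median log2 difference of 0.48. The lower count was 1 without 2-month female replicate 1, 2, 3 or 4, 2-month male replicate 2 or 4, 10-month female replicate 1 or 2 or 10-month male replicate 1. In the fit of 64 libraries their median was 0.49 in Q140, 0.23 in Q20, 0.09 in WT and -0.05 in Q175. None of the 12 choroid plexus genes was called although their median log2 difference was 1.49, beside the wide spread of their levels, and 6 were called higher without 2-month male replicate 3 and 1 without 10-month female replicate 4.

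Leaving out single libraries also moved small counts by 1. A striatal marker was higher without 2-month female replicate 1, 10-month female replicate 3 or 10-month male replicate 3. A glutamate receptor gene was higher without 2-month male replicate 3, 10-month female replicate 3 or 10-month male replicate 2 or 4. A cell cycle gene was higher without 10-month female replicate 1, 2 or 3. An interferon-stimulated gene was lower without 2-month female replicate 2 or male replicate 1, a protocadherin without 2-month female replicate 2 or 10-month female replicate 3, and a ribosomal protein without 10-month female replicate 3. No matrix gene rose without 2-month female replicate 2, 2 complement genes fell without 10-month male replicate 3, and 2 meningeal markers fell without 2-month female replicate 1. With the choroid plexus level in the model, lower counts were 3 for potassium channels, 2 for GABA receptors and transporters, 0 for release proteins, 2 for complement and 1 each for hippocampal markers and immediate early genes. In that model cholesterol synthesis gave 0 higher and 3 lower, and 0 genes of the respiratory chain, of immature neurons and of matrix proteins rose.

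The age change in Q140 was compared with that in Q20, WT and Q175 cortex in 1 fit of all 64 libraries. No library is shared between genotypes, but at each age the libraries of these genotypes carry names of 1 common series. Agreement between genotypes therefore cannot tell age from library series. Of 17344 genes 3484 were called for Q140 (20.1%), 3100 for Q20 (17.9%), 2552 for WT (14.7%) and 4854 for Q175 (28%). Of the 2438 genes called in the 16 libraries 2401 had the same sign in Q20 and 1692 were also called there in that direction. In WT 2343 had the same sign and 1362 were called, and in Q175 2373 had the same sign and 1883 were called. Another 4 were called with the opposite sign in Q175, and 0 in Q20 or WT. Seen from the other side, those shared calls were 54.6% of the calls in Q20, 53.4% of those in WT and 38.8% of those in Q175. The striatal genes fell by a median log2 difference of -0.77 in Q20, -0.77 in WT and -0.78 in Q175, against -0.80 in Q140 in this fit. Their summed level at 10 months was 885 to 1026 CPM in Q20, 903 to 1129 CPM in WT and 779 to 936 CPM in Q175. Each lay below all libraries of its own genotype at 2 months (1296 to 1661, 1285 to 1631 and 957 to 1419 CPM). Penk, for example, had log2 differences of -1.90 in Q140, -1.48 in Q20, -1.37 in WT and -2.10 in Q175. Those of Gpr17 were -0.82 in Q140, -0.65 in Q20, -0.62 in WT and -0.88 in Q175. Abca8a had 1.04 in Q140, 0.76 in Q20, 0.72 in WT and 1.13 in Q175, and Igfbpl1 -2.93 in Q140, -3.15 in Q20, -2.64 in WT and -2.45 in Q175.

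**Figure D5:**
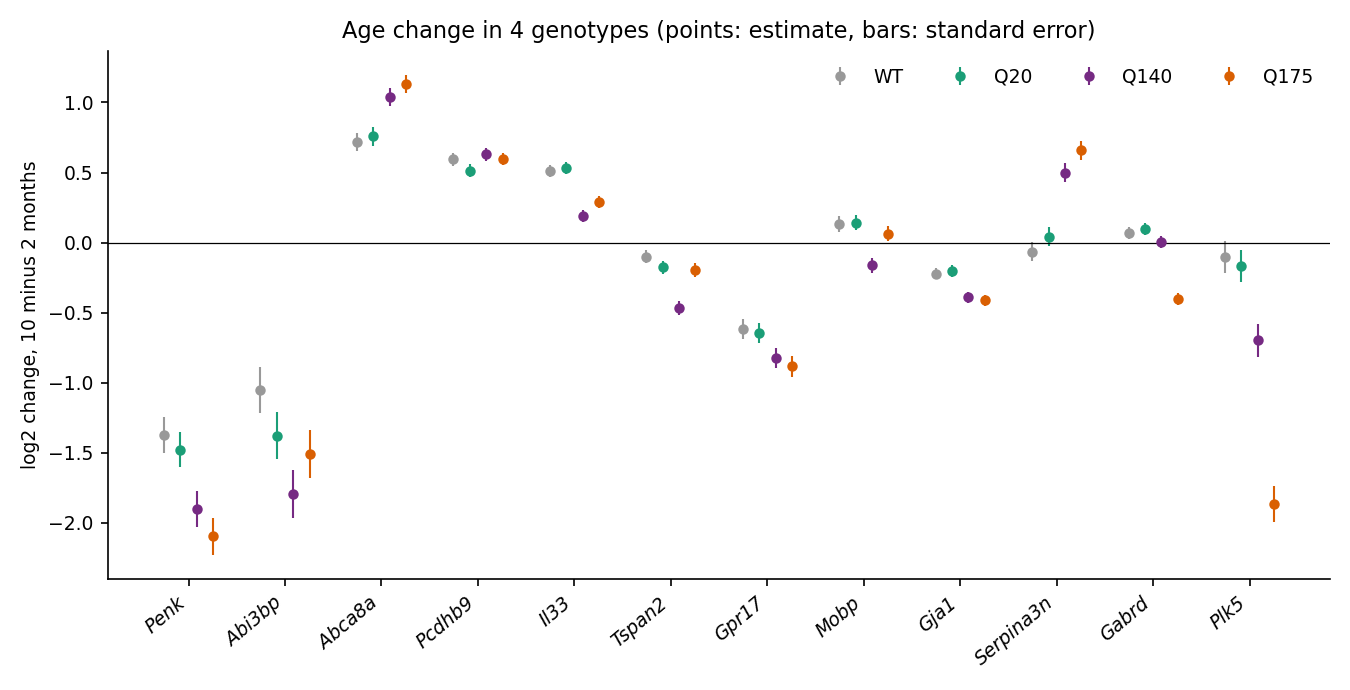
Age change (log2, 10 minus 2 months) of 12 genes in WT, Q20, Q140 and Q175 cortex from the fit of 64 libraries; points are estimates and bars standard errors. Penk and Abi3bp fall in each genotype, Il33 rises by 0.19 in Q140 against 0.53 in Q20 and 0.51 in WT, and Serpina3n changes by 0.50 in Q140 and 0.66 in Q175 against 0.04 in Q20 and -0.07 in WT.

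The test of the difference itself found 1 gene whose age change in Q140 differed from that in Q20 (0.00577% of 17344). An unadjusted p under 0.05 was found for 3.74%, DESeq2 called 2, and 2 were called without 2-month female replicate 2 or 3 or 10-month female replicate 2 or 3. The gene was Il33, an alarmin of the interleukin-1 family made by oligodendrocytes and astrocytes (chromosome 19, 29925114 to 29960718). Il33 was 46.2 to 53.3 CPM (median 47.8) at 2 months and 51.9 to 59.6 CPM (median 56.2) at 10 months, with overlap. In the fit of 64 libraries it rose less in Q140 (log2 difference 0.19) than in Q20 (0.53) or WT (0.51), and Q175 was between them (0.29). The difference from Q20 was -0.35 ± 0.06 (SE; adjusted p = 0.00405). With the 4 groups of Q140 and Q20 fitted alone 0 genes were called (-0.35 for Il33, adjusted p = 0.0542). Without libraries of a median correlation under 0.99 within their group 0 were called as well (-0.32 for Il33, adjusted p = 0.132). Against WT 3 genes differed (0.0173%), 1 in the higher (0.00577%) and 2 in the lower direction (0.0115%). An unadjusted p under 0.05 was found for 1415, and 5 were called by DESeq2 and without 10-month female replicate 2. Without 10-month female replicate 3 of Q140 the unadjusted count was 906 and 3 genes were called. WT libraries also stood apart. That labelled WT 2-month female replicate 2 had a median correlation of 0.9795 within its group and 133 CPM of Htt. WT 2-month female replicate 1 had 137 CPM of Alb. Neither was left out singly. Il33 rose less in Q140 than in WT (-0.32 ± 0.06, adjusted p = 0.00554). Serpina3n had log2 differences of 0.50 in Q140, 0.04 in Q20, -0.07 in WT and 0.66 in Q175, and its change was larger in Q140 than in WT by 0.56 ± 0.10 (adjusted p = 0.00374) and than in Q20 by 0.46 ± 0.10 (adjusted p = 0.115, not called). Tspan2 fell more in Q140 than in WT, by -0.37 ± 0.07 (adjusted p = 0.00554); its log2 differences were -0.47 in Q140, -0.18 in Q20, -0.10 in WT and -0.19 in Q175. Without the libraries of median correlation under 0.99, which are 22 of the 64 and 7 of the 16 of Q140, 0 genes were called against WT. The differences from WT were then 0.65 for Serpina3n, -0.36 for Tspan2 and -0.35 for Il33 (adjusted p = 0.244 for each). The correlation used here was over the genes of the 64-library fit. With the genes of the 16-library fit only 1 of these Q140 libraries, 10-month female replicate 3, was under 0.99. After Serpina3n, the named genes with a more positive change than in Q20 were, by p, Plpp2, Slc45a3, Enpp6 and Chdh. None of them was called. Plpp2 is a lipid phosphatase and Chdh the choline dehydrogenase. Plpp2 had log2 differences of 0.54 in Q140, -0.03 in Q20, -0.04 in WT and 0.37 in Q175 (95% interval of the difference from Q20 0.31 to 0.82, adjusted p = 0.198). Chdh had 0.55 in Q140, 0.09 in Q20, 0.09 in WT and 0.53 in Q175 (interval 0.22 to 0.70, adjusted p = 0.264). The median SE of a difference was 0.09 on the log2 scale. Allele and housing cannot be told apart in these comparisons.

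The age change differed from that in Q175, the longer allele, for 74 genes (0.427%; 1504 had an unadjusted p under 0.05). DESeq2 called 118, and 38 were called without the libraries of median correlation under 0.99. Of the 74 genes, 58 had a more positive change in Q140 (0.334%) and 16 a more negative one (0.0923%). Onecut2, a homeobox factor of embryonic neurons, ranged from 4.01 to 5.51 CPM at 2 months and from 3.54 to 7.01 CPM at 10 months in Q140 and did not pass the test there (adjusted p = 0.182). Its log2 differences were 0.24 in Q140, 0.10 in Q20, 0.20 in WT and 1.52 in Q175, and Q140 differed from Q175 by -1.28 ± 0.14 (adjusted p = 8.04e-09). Plk5, a polo-like kinase of neurons, ranged from 11.8 to 20.5 CPM (median 18.2) at 2 months and from 7.79 to 14.9 CPM (median 10.9) at 10 months in Q140, a fall with overlap (log2 difference -0.70 ± 0.13). In Q175 it fell more (-1.86), a difference of 1.17 ± 0.17 (adjusted p = 3.96e-05). Gabrd, the GABA receptor subunit of tonic inhibition, had 56.4 to 66.0 CPM at 2 months and 53.6 to 69.6 CPM at 10 months in Q140, with a log2 difference of 0.003, against -0.40 in Q175 (difference 0.40 ± 0.06, adjusted p = 3.96e-05). Hipk4, a homeodomain-interacting kinase, had log2 differences of -0.13 in Q140, 0.04 in Q20, 0.08 in WT and -0.60 in Q175 (difference from Q175 0.47 ± 0.07, adjusted p = 3.96e-05). Tal1, a basic helix-loop-helix factor, went from medians of 2.39 CPM at 2 and 2.05 CPM at 10 months in Q140 without passing the test, while its log2 difference in Q175 was 0.68 (difference -0.97 ± 0.16, adjusted p = 0.000255). Tspan2 and Ighm are also among the 74, Tspan2 falling more in Q140 (-0.27 ± 0.07). Ighm had log2 differences of 0.32 in Q140, 0.44 in Q20, 0.34 in WT and -0.19 in Q175 (difference from Q175 0.50 ± 0.11).

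The age change was compared between the sexes with 4 libraries of each sex and age. No gene was called (0% of 16490). An unadjusted p under 0.05 was found for 3.13% with edgeR and for 476 genes with DESeq2, which also called 0. The median SE of the difference between the sexes was 0.13 on the log2 scale. For Penk the males minus females difference was -0.24 ± 0.15, for Abca8a 0.04 ± 0.14 and for Gja1 0.08 ± 0.07. Fitted alone, the 8 female libraries gave 446 called genes and the 8 male libraries 1328, and a difference in such counts is no test of a difference between the sexes.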

How the data were processed

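The authors deposited, for each of the 168 cortex libraries, estimated counts per gene, of which 17.75% were not whole, and FPKM values (scaled by gene length and library size) in a second table, both indexed by Ensembl gene. The submitters' processing notes name CASAVA 1.8.2. Aligner, quantifier, genome build and annotation are not given in the sources used. Gene names and positions are from GENCODE M21 (GRCm38) and 0.258% of the counts fell on IDs with no symbol. Deposited estimated counts were rounded to whole numbers, scaled by TMM and filtered with filterByExpr of edgeR 4.0.16 (minimum count 10, minimum total 15). The quasi-likelihood test of edgeR (robust, two-sided) was fitted to the 16 Q140 libraries with a term for sex. Adjustment was by Benjamini-Hochberg over every gene in the fit, and the threshold was 0.05. Age changes were compared between genotypes as interaction terms in a fit of 64 libraries and between sexes as an interaction in the 16. Errors are standard errors of log2 differences. No pair of libraries of a group had counts that agreed within sampling noise (chi-square per degree of freedom at least 3.75 over 56 pairs).

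The groups compared, the 44 gene lists and the rule for named genes were chosen with earlier results of these data known, and 3 further lists were added after the values were seen. Lists are described by counts and medians, with no test. The rule named the 12 genes of smallest p and the 5 of largest fold each way with a mean of at least 1 CPM, up to 4 genes of smallest p per list and the leading genes of each interaction. Not every gene it named is reported here. Alternatives were DESeq2 1.42.0, its size factors, no sex term, all genes without the filter, a replicate block by number, the fits with 6-month libraries or of 64 libraries, limma 3.58.1 on log2 of the deposited FPKM plus 0.1 or 1 (genes over a mean FPKM of 0.1), each sex alone and each library left out. In comparisons between genotypes only Q140 libraries were left out singly. Added after the values were seen were striatal or choroid plexus levels as covariates. The fits were tested on simulated data with known changes, 50 genes at each size. A true log2 change of 0.25 was found for 52% of them in the age comparison. It was found for 14% in the difference from Q20 and 0% between the sexes. At 0.5 these shares were 74%, 66% and 32%. Only those genes were changed, in a single draw. They were a far smaller part of all genes than the 14.8% called in the age comparison. The shares found may therefore not hold for the real age comparison.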

Additional observations from a re-analysis of the deposited data

Results flagged for a closer look

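Single libraries stood far from the other 7 of their group in 18 of the 214 sets of 8 values examined, by Dixon's test at the 95% level, where chance gives about 1 in 20. The library labelled 10-month female replicate 3 gave 6 of them. These were Htt (98.9 CPM, the next library 158 CPM), Pdgfra (43.0, next 52.1 CPM), Spag6 (6.14, next 5.04 CPM) and Igfbpl1 (0.505, next 0.266 CPM). The others were its median correlation with the other libraries of its age (0.980, next 0.991) and its share of mitochondrial transcripts (13.9%, next 11.4%). At 2 months male replicate 3 was low for Tac1 (21.3 CPM), Six3 (2.14 CPM) and Gad2 (163 CPM), all genes of striatal or other GABAergic neurons, and high for Hapln4 (103 CPM). Also at 2 months, female replicate 4 was low for Anln (23.9 CPM) and high in mitochondrial share (12.96%), female replicate 1 was low for Wfs1 (97.4 CPM), and male replicate 4 was high for Aqp4 (159 CPM). At 10 months female replicate 2 was high for Abi3bp (9.50 CPM) and Drd2 (1.86 CPM), and male replicate 2 for Chat (0.948 CPM) and Slc6a11 (163 CPM).

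Tests of the difference between genotypes picked out 1 gene against Q20, 3 against WT and 74 against Q175. Il33 rose less in Q140 than in Q20 (log2 difference of the changes -0.35) and WT (-0.32). Against WT, Tspan2 fell more (-0.37) and Serpina3n rose more (0.56). Against Q175 the named genes were Tspan2 (-0.27), Ighm (0.50), Plk5 (1.17), Gabrd (0.40), Hipk4 (0.47), Onecut2 (-1.28) and Tal1 (-0.97). Age and library series cannot be told apart within a genotype, and allele and housing cannot be told apart between genotypes.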

How the results depend on the processing

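The count of 2438 genes called between 2 and 10 months stayed within 1.5 times of that value with DESeq2 (2782), its size factors, no sex term, all genes without the filter, the 6-month libraries in the fit, the fit of 64 libraries, limma on FPKM and the choroid plexus covariate. Of the 1872 genes called with that covariate 1575 were among the 2438. The count was 1948 to 3176 when each library was left out. It was 446 in females only, 1328 in males only and 0 with the striatal level as a covariate, where fewer libraries enter the single-sex fits and the covariate does not overlap between ages. With the replicate number as a block 1838 genes were called, of which 39.8% were higher against 45.5%. For genotype differences that block gave 1 for Q20, 3 for WT and 52 for Q175. The numbers do not pair the libraries: the 8 correlations of same-numbered libraries ran from -0.238 to -0.0175, 0 were over 0.1, and 0 correlated best with their own number. Genes with a different age change from Q20 numbered 1 to 2 when each Q140 library was left out, and 2 with DESeq2. They numbered 0 with only the 4 groups of the contrast and 0 without libraries of a median correlation under 0.99. For WT the corresponding values were 3 to 5, 5 with DESeq2, 3 and 0; for Q175 58 to 101, 118, 60 and 38. Their cause was not tested. Between the sexes 0 genes were called under each of the alternatives run (DESeq2, size factors, no filter, each library left out). Among values of named genes over the settings of the age comparison 2742 kept direction and call, 157 kept direction and were no longer called, and 9 reversed, all with the striatal covariate: Dsp (-1.27), Col8a1 (-0.53), Pdgfra (0.16), Ighg2c (-0.091), Col11a1 (0.21), Fezf2 (-0.18), Kcnj10 (0.065), Il33 (-0.041) and Plpp2 (-0.075). Leaving out libraries high in the liver list was not run, since 7 libraries, more than planned for, exceeded 3 times the median. In these 7 the summed level was nearly all Ttr, which is also a choroid plexus marker. In 10-month female replicate 3, for example, Ttr was 2024 of 2027 CPM. Depth was 29842900 to 41929000 estimated counts, so precision rested on the spread between libraries (biological coefficient of variation 0.098) except for genes of a few counts, such as Isl1 and Slc10a4 at 10 months.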
